A study of Mus musculus with 2 samples.

Results

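The genes that mark a neuron as glutamatergic or GABAergic were examined in the postpartum brain of TDAG51-/- dams. The members were the 3 vesicular glutamate transporters Slc17a6, Slc17a7 and Slc17a8, the glutamate decarboxylases Gad1 and Gad2, the vesicular GABA transporter Slc32a1 and the plasma membrane GABA transporter Slc6a11. Their probes were found by gene name, with accession and description also searched for Gad1 and Gad2, and not by any measured value. The genes themselves were chosen with earlier results of these data known. These 7 genes, of 27670 gene names or other identifiers on the array, were represented by 12 of the 41174 probes.

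RNA from the whole brain of female C57BL/6J dams, 8 weeks old and taken on postpartum day 0 (P0), was hybridized to 2 two-colour Agilent mouse arrays. On the first array, TDAG51-/- brain was labelled with Cy3 and TDAG51+/+ brain with Cy5, and on the second array TDAG51-/- brain was again in Cy3 and TDAG51-/-Tg2 brain in Cy5. TDAG51, listed as Phlda1, encodes a pleckstrin homology-like domain protein. TDAG51-/-Tg2 is 1 transgenic line from 1 founder on the TDAG51-/- background, so that both arms of the second array lack the endogenous gene. The line carries TDAG51 behind a BAI1-AP4 promoter, whose activity is known chiefly from cortex and hippocampus. The labels name this sample only as a knockout with a transgene, and the line is taken from the study's methods. How many dams each sample holds, and whether the TDAG51-/- RNA was the same on both arrays, is not given in the sources used here.

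Each comparison rested on a single array without a dye swap. No test across animals was therefore possible, the spread between dams was not measured, and dye and genotype cannot be told apart. Both comparisons used a TDAG51-/- sample in Cy3, so that they are not independent of each other. The errors given below are those of the scanner software for 1 spot and cover technical error alone. The SD between repeated spots of a probe had a median of 0.06 on the log2 scale on both arrays, over 245 probes with at least 5 spots each. Ratios are TDAG51-/- over the control after background correction and loess normalization, and a difference is called at 2-fold, which is 1 on the log2 scale. For the targeted gene, the Phlda1 probe had an intensity of 350 in TDAG51-/- and 7283 in TDAG51+/+ brain, a log2 ratio of -4.11. On the second array it had an intensity of 44.1 in TDAG51-/- and 50.5 in TDAG51-/-Tg2 brain, and neither was well above background. This probe thus gave no check of the transgene. Its TDAG51-/- channel was well above background on the first array but not on the second, and the reason was not tested.

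A glutamatergic neuron loads glutamate into synaptic vesicles with VGLUT1 (Slc17a7), VGLUT2 (Slc17a6) or VGLUT3 (Slc17a8). VGLUT1 is the main transporter of neurons of the cerebral cortex, hippocampus and cerebellar granule layer, VGLUT2 that of thalamus, hypothalamus and brainstem, and VGLUT3 is found in sparse serotonin, cholinergic and GABA neurons. GABA is made from glutamate by GAD67 (Gad1) and GAD65 (Gad2), is loaded into vesicles by VGAT (Slc32a1), which also carries glycine, and is cleared from the extracellular space by transporters that include GAT3 (Slc6a11), found mostly in astrocytes.

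Each probe is a DNA oligonucleotide 60 bases long that reads its transcript at 1 place. The probes below are those on which the results turn, the pairs being shown because their ratios are compared within a gene. Of each, the first 30 bases are printed from 5′ to 3′ as the deposited scanner output gives them, and no base is marked by capitals.
Slc17a6, first probe: taagtgcaaagcataaaacctcctgtgtgt
Slc17a6, second probe: ggatgaagaaacgggggacatcactcagaa
Slc17a7: ttcaaggctcgcctaaccaattctacattt
Slc17a8, first probe: ttggattttcccataccaaaggagtggcta
Slc17a8, second probe: ctttcttggaaagtatggtcagatgatata
Gad1, first probe: gagtgcccttaacataatgatttgaacata
Gad1, second probe: tattaatggagtaagttctggatactgttt
Gad2: tttgtaatcacctcactcatcaaaactgtt
First and second name the brighter and the dimmer probe of a gene. On mm7, the build of the scanner output, the Slc17a6 probes (NM_080853) were listed at chr7:47903400-47903459 and chr7:47901886-47901945, and the Slc17a7 probe (NM_182993) at chr7:41351199-41351258, all on the plus strand. The Slc17a8 probes (NM_182959) were listed at chr10:89142186-89142245 and chr10:89133657-89133716 on the minus strand. The Gad1 probes (NM_008077) were listed at chr2:70468992-70469051 and chr2:70469090-70469149 on the minus strand, with only 38 bases between them, and the Gad2 probe (NM_008078) at chr2:22675289-22675347 on the plus strand. Slc32a1 (NM_009508) had 1 probe at chr2:158356478-158356537, and Slc6a11 (NM_172890) had probes at chr6:114410268-114410327 and chr6:114295364-114295423. Exon annotation of mm7 was not used here. In the 60 bases of the first Slc17a6 probe, the second Slc17a8 probe and the first Gad1 probe, each of the 3 forward reading frames held a stop codon, so that these probes do not lie wholly within coding sequence. One more Gad1 probe, Gad1 (3), named from AK054554 and listed 4496 bases from the nearest of the others, was not well above background in any channel, with intensities between 43.1 and 49.4, and gave no ratio.

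Of the 12 probes, 11 were well above background on both arrays, and none was saturated. In TDAG51-/- brain, 0 of the 11 were higher than in TDAG51+/+ brain by 2-fold or more and 0 were lower by as much, although the Slc17a7 probe passed downward under 4 of 6 alternative settings and the second Gad1 probe under 2. Over the array, 4.90% of the 34576 probes tested passed 2-fold upward and 4.42% downward. Relative to TDAG51-/-Tg2, 0 passed upward and 2 downward, namely those of Slc17a7 and Gad2, which is 18.2% of the 11 probes. Of the 33805 probes tested there, 4.72% passed upward and 3.86% downward. The 11 probes had medians of -0.27 (TDAG51+/+) and -0.37 (TDAG51-/-Tg2) on the log2 scale, beside 0.01 over all probes tested in each comparison. Counted by gene, whether by the brightest probe or by the median of a gene's probes, 0 of the 7 genes passed 2-fold against TDAG51+/+ and the same 2 genes passed against TDAG51-/-Tg2.

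**Figure D1:**
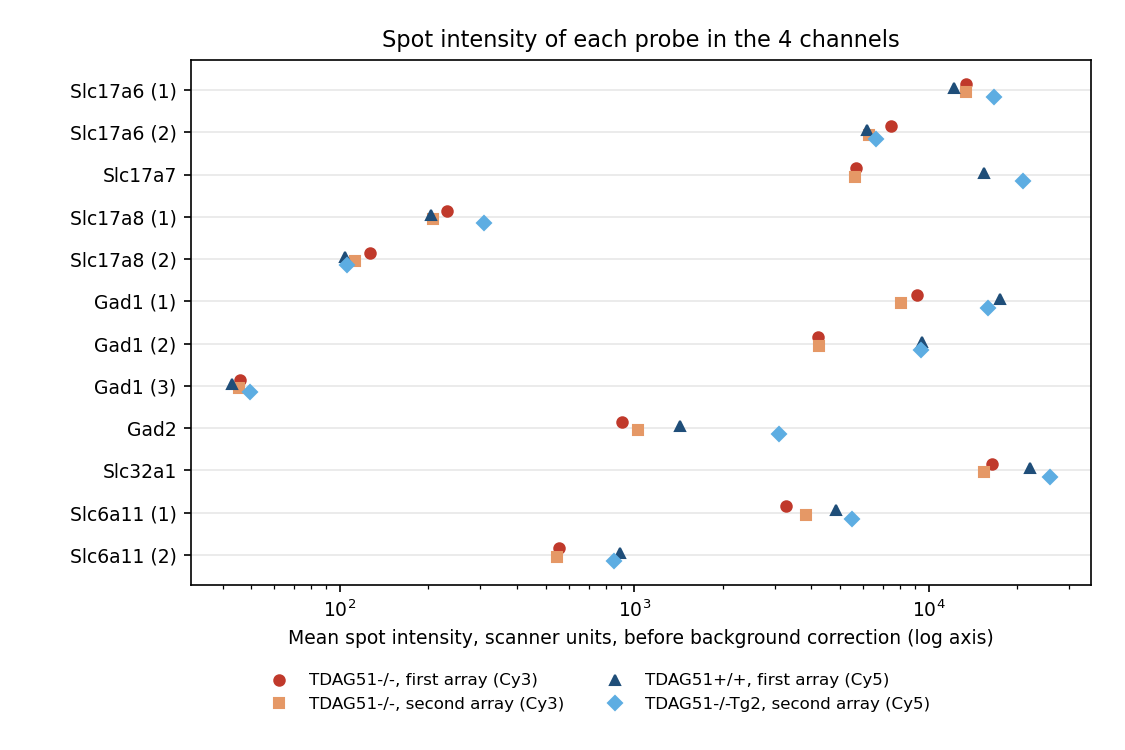
Mean spot intensity of each of the 12 probes (log axis, scanner units, before background correction) in the 4 channels of both arrays. The Slc17a7, Gad1 (1), Gad1 (2), Gad2, Slc32a1 and Slc6a11 probes are brighter in both Cy5 control channels than in both Cy3 TDAG51-/- channels, and Gad1 (3) lies between 43.1 and 49.4 in all 4 channels.

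For the vesicular glutamate transporters Slc17a7 and Slc17a6, the ratios against TDAG51+/+ were of opposite sign. This held under each of the 6 alternative settings that can change a ratio, although the size of the Slc17a6 ratios depended on the setting. The Slc17a7 probe had an intensity of 5679.7 in TDAG51-/- and 15406.5 in TDAG51+/+ brain on the first array. The second array gave 5605 in TDAG51-/- and 20896.5 in TDAG51-/-Tg2 brain. Before normalization both TDAG51-/- channels were thus dimmer than both control channels, but so were those of Slc32a1 and Slc6a11, and Cy5 was the brighter dye over the array, with an unnormalized median log2 ratio of -0.19 on 1 array and -0.25 on the other. This order by itself is therefore not read as a difference between genotypes. The log2 ratio was -0.99 ± 0.23 (scanner error) against TDAG51+/+, or 1.98-fold lower. This was short of 2-fold, but 4 of the 6 settings passed it, at -1.04 with the scanner's ratio, -1.04 with the deposited ratio, -1.29 with median centring and -1.44 without normalization. Against TDAG51-/-Tg2 it was -1.40 ± 0.24, or 2.64-fold lower. Only 4.56% of all probes tested against TDAG51+/+, and 1.50% of those tested against TDAG51-/-Tg2, had a ratio as low as this.

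For Slc17a6, the first probe had an intensity of 13393 in TDAG51-/- and 12169 in TDAG51+/+ brain, and 13379.7 in TDAG51-/- and 16677 in TDAG51-/-Tg2 brain. The second probe had an intensity of 7446 in TDAG51-/- and 6198 in TDAG51+/+ brain, and 6280.1 in TDAG51-/- and 6639 in TDAG51-/-Tg2 brain. Before normalization the TDAG51-/- channel was therefore the brighter one on the first array and the dimmer one on the second. After loess normalization both probes had a log2 ratio of 0.65 ± 0.21 against TDAG51+/+, or 1.57-fold higher, which did not pass 2-fold. These ratios became 0.29 and 0.41 with median centring. Without normalization they were 0.14 and 0.26, the first smaller than the error of its spot. Against TDAG51-/-Tg2 the loess ratios were 0.23 ± 0.20 and 0.31 ± 0.21. Both turned negative without normalization, at -0.32 and -0.08, the first also with median centring, at -0.13. The probes of Slc17a6 lie 1454 bases apart and the first minus the second was -0.0025 against TDAG51+/+ and -0.08 against TDAG51-/-Tg2, less than the error of a spot.

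Slc17a8, the transporter of the sparse VGLUT3 neurons, was dim. Its first probe had an intensity of 231 in TDAG51-/- and 204 in TDAG51+/+ brain, and 207 in TDAG51-/- and 309 in TDAG51-/-Tg2 brain. The log2 ratios were 0.22 ± 0.21 and -0.37 ± 0.21. Its second probe, 8469 bases away, had an intensity of 126 in TDAG51-/- and 104 in TDAG51+/+ brain, and 113 in TDAG51-/- and 106 in TDAG51-/-Tg2 brain, with log2 ratios of 0.28 ± 0.23 and 0.20 ± 0.28. Against TDAG51+/+, the ratio of each Slc17a8 probe was about as large as its error. Against TDAG51-/-Tg2 the probes were of opposite sign, and the first minus the second was -0.57, the largest such difference among the 4 members with a pair of measured probes.

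**Figure D2:**
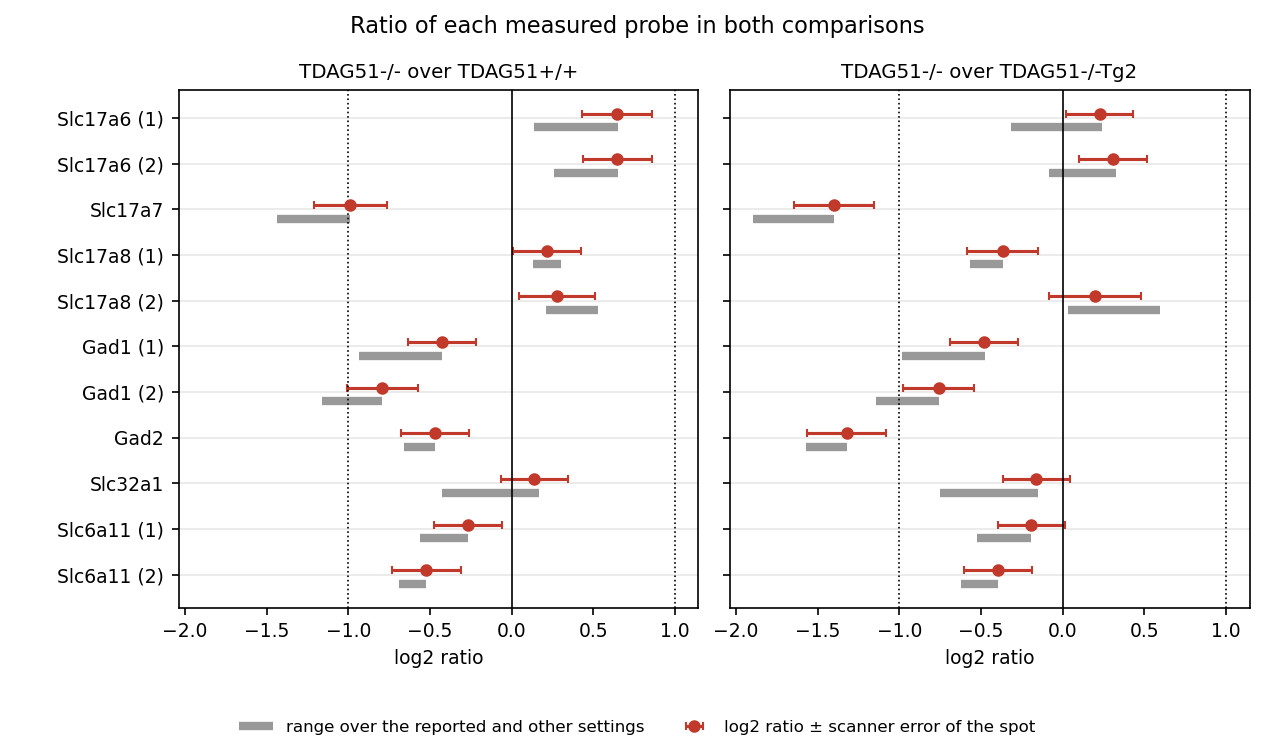
Log2 ratio of TDAG51-/- over each control for the 11 measured probes (points, with the scanner error of the spot as bars), the range over the reported and 6 other settings that can change a ratio (grey bars), and the 2-fold limits (dotted lines). Slc17a7 lies at -0.99 and -1.40, and Gad2 at -0.47 and -1.32, while the grey bars of Slc17a6 against TDAG51-/-Tg2 and of Slc32a1 against TDAG51+/+ cross 0.

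Both enzymes of GABA synthesis had negative ratios in both comparisons under each of the same 6 settings. For Gad1, the decarboxylase found throughout the neuron, the first probe had an intensity of 9157 in TDAG51-/- and 17526 in TDAG51+/+ brain, and 8043 in TDAG51-/- and 15909.5 in TDAG51-/-Tg2 brain. The second probe had an intensity of 4224 in TDAG51-/- and 9469 in TDAG51+/+ brain, and 4253 in TDAG51-/- and 9414 in TDAG51-/-Tg2 brain. The TDAG51-/- channels were again the dimmer ones before normalization. The log2 ratios of the first probe were -0.43 ± 0.21 and -0.48 ± 0.21, or 1.35-fold and 1.39-fold lower. Those of the second probe were -0.79 ± 0.22 and -0.76 ± 0.22, or 1.73-fold and 1.69-fold lower. Although only 38 bases separate them, the second probe gave a ratio lower than the first by 0.36 against TDAG51+/+ and by 0.28 against TDAG51-/-Tg2. Against TDAG51-/-Tg2 the probes lay closer with median centring, at -0.80 and -0.96, and without normalization, at -0.98 and -1.14. As measured, the Gad1 ratio varied more between the probes than between the controls. Each probe carries its own spot error, and whether the probes differ was not tested.

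For Gad2, the decarboxylase enriched at nerve terminals, the comparison with the transgenic line gave the larger difference. Its probe had an intensity of 906 in TDAG51-/- and 1435 in TDAG51+/+ brain on the first array. On the second it had an intensity of 1031 in TDAG51-/- and 3095 in TDAG51-/-Tg2 brain. Before normalization the TDAG51-/-Tg2 channel was the brightest of the 4. The log2 ratio was -0.47 ± 0.21 against TDAG51+/+, or 1.38-fold lower, and -1.32 ± 0.24 against TDAG51-/-Tg2, or 2.50-fold lower. Of all probes tested, 17.3% had a ratio as low as this against TDAG51+/+ and 1.77% against TDAG51-/-Tg2.

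The vesicular GABA transporter Slc32a1 differed little after loess normalization. Its probe had an intensity of 16457 in TDAG51-/- and 22157 in TDAG51+/+ brain, and 15413 in TDAG51-/- and 25906 in TDAG51-/-Tg2 brain. The log2 ratio was 0.14 ± 0.20 against TDAG51+/+ and -0.16 ± 0.20 against TDAG51-/-Tg2, both smaller than the error of the spot. Both depended on the scaling. The first turned negative with median centring, at -0.28, and without normalization, at -0.43, and the second moved to -0.565 and -0.75. VGAT is needed for release by GABA and glycine neurons alike, whereas the decarboxylases belong to GABA neurons.

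For the astrocytic GABA transporter Slc6a11, the first probe had an intensity of 3269 in TDAG51-/- and 4832 in TDAG51+/+ brain, and 3819.9 in TDAG51-/- and 5511 in TDAG51-/-Tg2 brain. The second probe, 114844 bases away, had an intensity of 553 in TDAG51-/- and 898 in TDAG51+/+ brain, and 548 in TDAG51-/- and 854 in TDAG51-/-Tg2 brain. The log2 ratios were -0.27 ± 0.21 and -0.19 ± 0.21 for the first probe, and -0.52 ± 0.21 and -0.40 ± 0.21 for the second. All were negative under each of these 6 settings and none passed 2-fold.

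**Figure D3:**
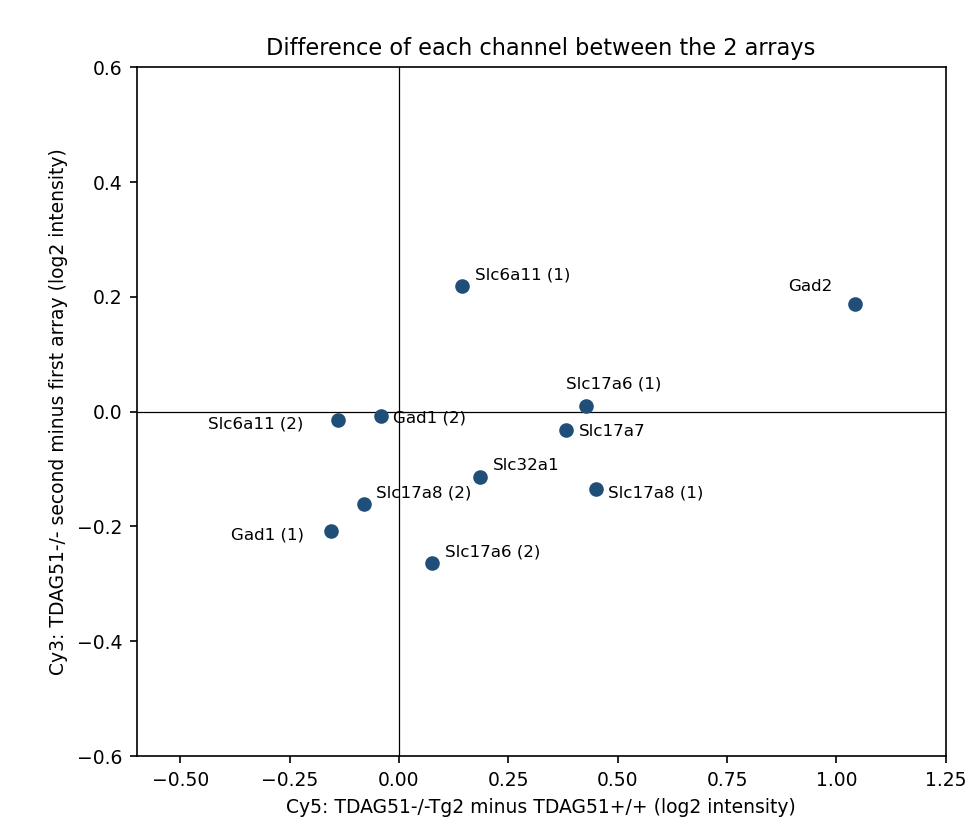
Difference between the arrays in each channel for the 11 measured probes, after loess and scaling between arrays (log2 intensity). The x axis is TDAG51-/-Tg2 minus TDAG51+/+ (Cy5) and the y axis TDAG51-/- on the second minus the first array (Cy3), where Gad2 lies farthest right, at 1.04, and the y values stay between -0.26 and 0.22.

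To place the 3 genotypes beside each other, the channels were scaled between the arrays. The TDAG51-/- channels of the 11 probes differed between the arrays by -0.26 to 0.22 on the log2 scale, and the robust SD of this difference over 33257 probes was 0.14. The control channels, TDAG51-/-Tg2 minus TDAG51+/+, differed by -0.16 to 1.04, and the robust SD over the same probes was 0.40. For Slc17a7, TDAG51-/- was lowest, and the controls differed by 0.38, less than the robust SD of all probes. This SD is the spread over different probes and not the error of 1 probe. Whether the controls differ was therefore not tested for any gene. For Gad2 the order was TDAG51-/- lowest, then TDAG51+/+, then TDAG51-/-Tg2, which was higher than TDAG51+/+ by 1.04. This rests on 1 spot on each array. The value lies within the central 95% of all probes, which ran from -1.17 to 1.14 for this difference. For Gad1 the controls differed by -0.16 and -0.04, also less than the robust SD. For Slc17a6 the first probe was higher in TDAG51-/-Tg2 than in TDAG51+/+ by 0.43 and the second by 0.08, and for Slc32a1 the difference was 0.19. The first Slc17a8 probe was higher in TDAG51-/-Tg2 by 0.45 and the second lower, at -0.08. For Slc6a11 the values were 0.14 and -0.14, again of opposite sign. Of the 11 probes, 6 had a negative and 3 a positive log2 ratio against both controls, and those of Slc32a1 and the first Slc17a8 probe differed in sign.

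Genes that handle glutamate and GABA outside these 7 were mostly within 2-fold. Of the 15 genes of glutamate handling, 14 were well above background, with median log2 ratios of 0.02 and 0.10 in the first and second comparison, which became -0.07 and -0.37 with median centring. Of the 14, 2 were at least 2-fold higher against TDAG51+/+ and 1 against TDAG51-/-Tg2, and 0 were at least 2-fold lower in either. Slc1a6, the glutamate transporter EAAT4 of Purkinje cells, was 4.40-fold and 4.32-fold higher. Slc38a2, a glutamine transporter, was 2.11-fold higher against TDAG51+/+ and 1.37-fold higher against TDAG51-/-Tg2. The neuronal glutamate transporter Slc1a1 was 1.41-fold lower against TDAG51+/+ and at least 1.45-fold lower against TDAG51-/-Tg2, where the control spot was saturated. Gls2, an enzyme that makes glutamate from glutamine, had log2 ratios of -0.02 and 0.79. Among the enzymes that interconvert glutamate, Glud1 had log2 ratios of 0.46 and 0.18, Got1 of -0.77 and -0.35, and Got2 of -0.19 and -0.20. Glutamine synthetase (Glul) was at least 1.13-fold lower against a saturated TDAG51+/+ spot and had no fold against TDAG51-/-Tg2. For the astrocytic glutamate transporters, Slc1a2 was at least 1.55-fold and at least 1.40-fold lower, and Slc1a3 had no fold because the control spot was saturated while the ratio was positive. Slc7a11, the cystine-glutamate exchanger, had log2 ratios of 0.24 and -0.41, and Slc1a7 was not well above background.

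Of the 9 genes of GABA handling, 8 were well above background and 0 passed 2-fold in either direction in either comparison, with median log2 ratios of -0.04 and 0.07, or -0.27 and -0.25 with median centring. The GABA transporter Slc6a13 (GAT2) had log2 ratios of -0.19 and 0.50. Slc6a12, which carries betaine and GABA, was 1.99-fold lower against TDAG51+/+ and 1.20-fold lower against TDAG51-/-Tg2. Among the enzymes of GABA breakdown, Aldh5a1 had log2 ratios of -0.11 and 0.12 and Aldh9a1 of 0.15 and 0.19, while Abat had a saturated control spot and no fold. The glutamine transporters Slc38a1, with log2 ratios of 0.41 and 0.02, and Slc38a3, with -0.07 and -0.33, were counted among the genes of both kinds of handling. Gadl1, a decarboxylase related to Gad1 by sequence, was not well above background. Of the 6 other members of the SLC17 family, 4 were well above background on each array and 0 passed 2-fold. They include the lysosomal transporter Slc17a5, with log2 ratios of -0.31 and -0.89, and the vesicular nucleotide transporter Slc17a9, with -0.42 and 0.20. Slc17a3 had a log2 ratio of -0.24 in the first comparison. On the second array it was well above background in 1 channel only, as was Slc17a2 on both arrays, and Slc17a1 and Slc17a4 were not well above background.

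The neurons that use these transporters lie in different brain regions, and markers of those regions differed between the samples. Of 14 markers of cortical and hippocampal glutamate neurons, the neurons of VGLUT1, 7 were at least 2-fold lower and 0 at least 2-fold higher in each comparison, 6 of them lower in both, with median log2 ratios of -0.94 and -0.92. Their summed intensity was 83900 in TDAG51-/- and 230971 in TDAG51+/+ brain, and 77517 in TDAG51-/- and 237374 in TDAG51-/-Tg2 brain. Mef2c was at least 3.33-fold and 4.27-fold lower, Emx2 3.29-fold and 2.45-fold lower, Tbr1 2.37-fold and 2.79-fold lower, and Fezf2 2.62-fold and 2.32-fold lower. These are transcription factors of the developing and adult cortex. In the same list, Bhlhe22 was 1.70-fold and 1.75-fold higher, and Neurod2 had log2 ratios of 0.15 and -0.11. Of 12 markers of cerebellar granule neurons, which also use VGLUT1, 8 and 10 passed 2-fold upward and 0 and 1 downward, with medians of 1.68 and 1.76. The summed intensity was 261970 in TDAG51-/- and 139704 in TDAG51+/+ brain, and 260759 in TDAG51-/- and 129992 in TDAG51-/-Tg2 brain. Gabra6, the GABA receptor subunit of granule cells, was 14.7-fold and 15.2-fold higher, Cbln3 5.88-fold and 6.07-fold higher, and Neurod1 4.91-fold and 4.98-fold higher. The TDAG51-/- spot of Cbln1 was saturated on both arrays, with an intensity of 65284 beside 22061.5 in TDAG51+/+ and 23132 in TDAG51-/-Tg2 brain. All markers of both kinds of neuron were well above background. In bulk brain RNA, fewer cells of a type and less RNA per cell cannot be told apart. Whether the makeup of the tissue contributes to the ratios of Slc17a7 was not tested.

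The VGLUT2 regions were less uniform. Of 10 thalamic markers, 1 was at least 2-fold higher in each comparison, Rora in the first and Calb2 in the second, and 0 lower, with medians of 0.19 and 0.11, or -0.10 and -0.16 with median centring, and summed intensities of 147669 in TDAG51-/- against 171832 in TDAG51+/+, and 139209 in TDAG51-/- against 173117 in TDAG51-/-Tg2 brain. Of 11 hindbrain and brainstem markers, 10 were well above background on each array, of which 6 and 7 were at least 2-fold higher and 0 lower, with medians of 2.30 and 1.99. Their summed intensity was 7341 in TDAG51-/- and 1865 in TDAG51+/+ brain, and 7614 in TDAG51-/- and 1977 in TDAG51-/-Tg2 brain. The segmental genes Hoxb5 and Hoxb2 were 7.19-fold and 9.17-fold, and 5.27-fold and 5.95-fold higher. Other genes of this list stayed within 2-fold, with log2 ratios of -0.41 and -0.32 for Hoxc4, -0.08 and -0.04 for Lmx1b, and 0.29 and 0.67 for Hoxb4. For the neurons that share VGLUT3, 5 and 4 of 8 markers were at least 2-fold higher and 0 lower, with medians of 1.06 and 0.89, and summed intensities of 12066 against 6548 and 11507 against 7519. Of these, the serotonin transporter Slc6a4 was 9.56-fold and 7.72-fold higher, Tph2, which makes serotonin, 6.05-fold and 2.57-fold, the serotonin neuron factor Fev 2.11-fold and 6.07-fold, and the choline transporter Slc5a7 2.06-fold and 2.19-fold. The other cholinergic genes were not higher by 2-fold, with log2 ratios of -0.42 and -0.18 for Chat, which makes acetylcholine, and of 0.20 and 0.32 for its vesicular transporter Slc18a3. Slc22a3, an organic cation transporter, had log2 ratios of -0.38 and -0.52 with 1 channel near background. Slc17a8 itself did not pass 2-fold beside them. The part of these markers in the Slc17a6 and Slc17a8 ratios was not tested.

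**Figure D4:**
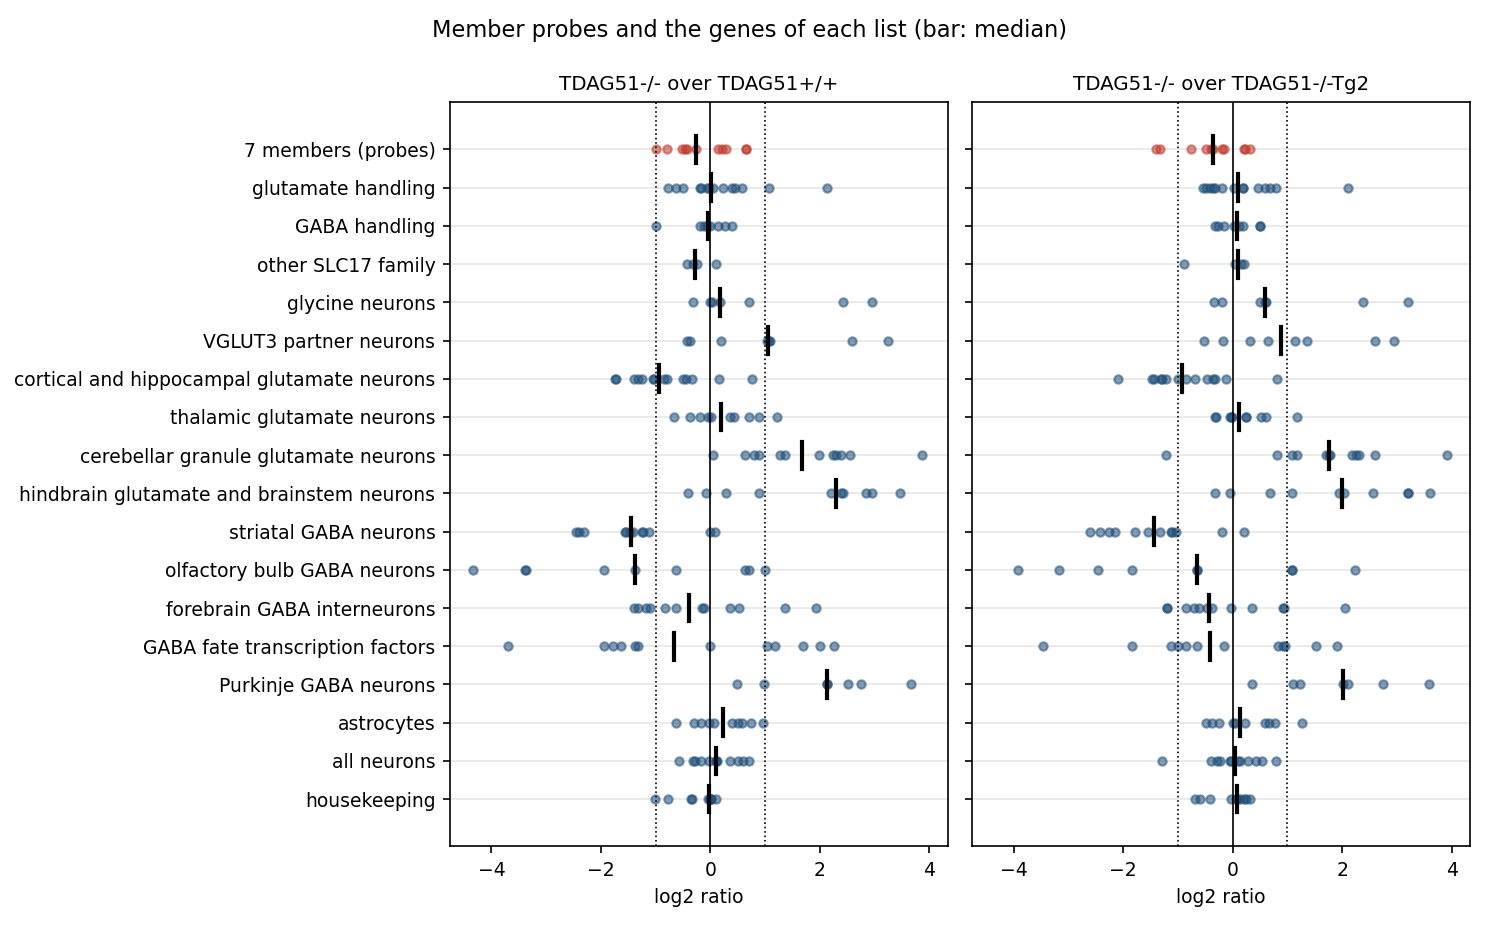
Log2 ratios of the 11 member probes (red) and of the genes of each of 17 lists (blue, 1 probe a gene), with the median of each as a bar and 2-fold as dotted lines, for each comparison. The striatal, cortical and hippocampal lists lie mostly below 0 and the cerebellar, Purkinje and hindbrain lists mostly above 0, while the member medians are -0.27 and -0.37.

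For the GABA neurons, the lists also went different ways. Of 12 markers of striatal GABA neurons, most of which are projection neurons that use GABA, 10 were at least 2-fold lower and 0 higher in each comparison, with a median of -1.44 in both. Their summed intensity was 62157 in TDAG51-/- and 215703 in TDAG51+/+ brain, and 61455.0 in TDAG51-/- and 232127 in TDAG51-/-Tg2 brain. The dopamine receptor Drd1 was 5.44-fold and 5.34-fold lower, the adenosine receptor Adora2a 4.96-fold and 4.44-fold, and the G protein subunit Gng7 2.93-fold and 4.79-fold. The dopamine receptor Drd2 had log2 ratios of 0.10 and 0.20, and Ppp1r1b of -0.003 and -0.20. The olfactory bulb markers are not all particular to GABA neurons. Of the 9 on the array, 5 and 4 were at least 2-fold lower and 1 and 3 at least 2-fold higher, with medians of -1.38 and -0.66 and summed intensities of 57343 against 140355 and 57627 against 113632. S100a5 was 20.3-fold and 15.1-fold lower, Sp8 10.4-fold and 8.99-fold, Cdhr1 10.4-fold and 5.48-fold, and Dlx2 3.84-fold and 3.57-fold lower, whereas Th, the first enzyme of dopamine synthesis, was 2.01-fold and 4.73-fold higher. Conversely, of 7 Purkinje cell markers other than Gad1, 5 and 6 were at least 2-fold higher and 0 lower, with medians of 2.14 and 2.01 and summed intensities of 239865 against 108613 and 241728 against 119578. Ppp1r17 was 12.7-fold and 12.0-fold higher and Car8 4.37-fold and 4.02-fold higher. The TDAG51-/- spot of Pcp2 was saturated on both arrays, with an intensity of 65284 beside 15146 in TDAG51+/+ and 15333 in TDAG51-/-Tg2 brain.

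Among 12 markers of forebrain interneurons, 4 and 2 were at least 2-fold lower and 2 and 1 at least 2-fold higher, with medians of -0.39 and -0.43 and summed intensities of 74957 against 64616 and 75000.2 against 57604. The transcription factor Nkx2-1 was 2.62-fold and 2.29-fold lower and the neuropeptide Npy 2.15-fold and 2.29-fold lower, while Pvalb, also a protein of Purkinje cells, was 3.82-fold and 4.14-fold higher. Of the transcription factors that direct GABA fate, 12 of 14 were well above background, of which 6 and 3 were at least 2-fold lower and 5 and 2 at least 2-fold higher, with medians of -0.66 and -0.41 and summed intensities of 25168.5 against 20450 and 23608.5 against 19883.5. The lower ones included the forebrain factors Lhx8 (13.0-fold and 11.0-fold), Dlx2 and Dlx1 (3.42-fold and 2.17-fold), and the higher ones included Lhx1 (4.79-fold and 3.74-fold) and Lhx5 (3.25-fold and 2.88-fold), which are used in cerebellum, brainstem and spinal cord. Ptf1a, the cerebellar GABA factor, was not well above background. Of 7 glycine neuron genes, 2 were at least 2-fold higher in each comparison and 0 lower, with medians of 0.18 and 0.60 and summed intensities of 76130.1 against 79849 and 73949 against 79409. These were the glycine transporter Slc6a5, 7.80-fold and 9.17-fold higher, and the glycine receptor subunit Glra1, 5.38-fold and 5.22-fold higher. The part of these markers in the Gad1, Gad2 and Slc32a1 ratios was not tested.

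Markers shared by all neurons, by astrocytes and by all cells were closer to 1. Of 12 markers of all neurons, 0 were at least 2-fold higher in either comparison, and 0 and 1 at least 2-fold lower, with medians of 0.10 and 0.04 and summed intensities of 293915 against 411895 and 293453 against 462820. Of 10 astrocyte markers, given beside Slc6a11, 0 and 1 were at least 2-fold higher and 0 lower, with medians of 0.24 and 0.13 and summed intensities of 281050 against 353634 and 275817 against 347777. Of the 10 housekeeping genes found on the array, 1 was at least 2-fold lower against TDAG51+/+ and 0 passed otherwise, with medians of -0.02 and 0.07. The medians of all 3 lists were negative with median centring, at -0.40 and -0.44 for all neurons, -0.15 in both comparisons for astrocytes and -0.57 and -0.47 for housekeeping genes, whereas those of the cortical, striatal, cerebellar, Purkinje and hindbrain lists kept their sign under each of 4 other scalings. The summed intensities precede normalization and include saturated spots. For astrocytes, all neurons, thalamic markers, glycine neuron genes, forebrain interneurons and GABA fate factors they point opposite to the medians. All sums are therefore given as measured and not read as levels of a list. The medians of the neuron, astrocyte and housekeeping lists also include ratios with a saturated dimmer channel, for which no fold is given. Among these is the astrocyte marker S100b, with an intensity of 65284 in every channel and log2 ratios of 0.75 and 0.77. Medians without such ratios were not computed.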

How the data were processed

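The authors hybridized cDNA of whole postpartum brain to 2 arrays and deposited the output of Agilent Feature Extraction 9.5.3.1. It holds the mean intensity and median background intensity of each spot and a log10 ratio of Cy5 over Cy3, with its error, after the software's own background correction and dye normalization. A table of log2 ratios, Cy3 over Cy5, was deposited as well, and its normalization is not given in the sources used here. The 45018 spots of an array included 43379 that were not controls, of which 375 and 300 carried the scanner's outlier mark and were omitted. The median intensity was 335 in Cy3 on both arrays, and in Cy5 359.97 on the first and 383 on the second, with median backgrounds between 39 and 44. Both arrays lay on the same slide, and their number limits the precision.

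Background was corrected by normexp with an offset of 50, and each array was loess normalized, in limma 3.58.1 (R 4.3.3, with data.table, version 1.17.8). The method was tested on simulated data. The simulation changed only 200 probes, fewer than passed 2-fold on either array, so that it does not test the scaling of these data. Results were tabulated in pandas 2.3.3 and numpy 2.4.6 under Python 3.11.15 and plotted in matplotlib 3.10.9. A probe with at least 1 channel well above background was counted at 2-fold, the threshold of the study. A fold is a lower bound if the dimmer channel was near background or the brighter one saturated, and is not given if the dimmer one was saturated. The counts and medians of the lists include the ratios of all such spots. Bounds were set after loess normalization. Levels of the 3 genotypes were set beside each other after Aquantile scaling between arrays. Since each comparison had 1 array, no test was made.

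The members and the 17 gene lists were chosen with earlier results of these data known. The genes named are every member probe, every gene of the handling and SLC17 lists, and from the other lists up to 4 each way past 2-fold in both comparisons, ranked by the smaller fold. Some listed genes enter the counts and medians, but their own values are not reported here. Drd2, Ppp1r1b, Ptf1a, Chat, Slc18a3, Slc22a3, Rora, Calb2, Bhlhe22, Neurod2, Hoxb4, Hoxc4 and Lmx1b, outside this rule, were added after their values were seen. A listed gene was represented by its brightest probe. Of the probes, 22951 were named by accession, 6659 by symbol and 3109 by synonym through RefSeq names of GRCm38.p6 (names only), and 8455 were not matched. Probe coordinates are those of the scanner output. The 10 alternatives were offset 0, plain background subtraction, median centring, no normalization, the scanner's ratio, the deposited log2 ratio, no filter on dim probes, a filter on both channels, saturated probes left out and Aquantile scaling.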

Additional observations from a re-analysis of the deposited data

Results flagged for a closer look

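The first Slc17a8 probe was above TDAG51+/+ by 0.22 on the log2 scale and had a value of -0.37 relative to TDAG51-/-Tg2. The ratios were of opposite sign, with 1 array each, and the difference between them was not tested. The ratio against TDAG51+/+ was about as large as the scanner error of its spot, and that against TDAG51-/-Tg2 was larger (an error of 0.21 in both comparisons). The second Slc17a8 probe had log2 ratios of 0.28 and 0.20.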

How the results depend on the processing

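Against TDAG51+/+, the number of member probes at least 2-fold lower was 0 as reported, 2 with median centring, 2 without normalization, 1 with the scanner's ratio and 1 with the deposited log2 ratio. The probe that passed in each of these 4 settings was that of Slc17a7, at -1.04 with the scanner's ratio and -1.44 without normalization, joined by the second Gad1 probe at -1.01 with median centring and -1.16 without normalization. The other counts of probes and genes stayed within 1.5 times. Without normalization the median of all probes was -0.19 and -0.25. The filters and Aquantile scaling cannot change a ratio. Under the 6 settings that can, 31 of 132 single ratios moved by more than the error of the spot, and 0 ratios past 2-fold changed sign. No paired analysis was possible because each comparison had 1 array.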
